A study of Mus musculus with 12 samples.

Results

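Potassium channel genes of the mouse dorsal root ganglion (DRG) were taken as every symbol of the gene count table that begins with Kcn, which gave 97 of 24033 genes. They comprised pores, modifier and auxiliary subunits, 3 noncoding RNAs and Kcnrg, a channel regulator. The low-count filter kept 86 of the 97. The other 11 had at most 18 counts in any library and were not tested: Kcna7, Kcne1, Kcne2, Kcnj1, Kcnj5, Kcnk7, Kcnk15, Kcnmb3, Kcnmb4os1, Kcnrg and Kcnv2. Of the 86, 78 were over the filter in every library of all 4 groups. Kcnh4 and Kcnk16 passed it through their injured libraries, and Kcnj8 and Kcnj13 through their input libraries, so a difference between those groups was built into their selection.

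All mice were Adv-Cre//Ribotag animals, in which Cre driven by Advillin, a gene active in sensory neurons, makes those cells carry Rpl22, a ribosomal protein, with an HA (hemagglutinin) epitope. The sciatic nerve on 1 side was crushed, and L4-L6 ganglia were taken 3 days later and dissociated. RNA bound to HA-tagged ribosomes (IP) and RNA taken before the immunoprecipitation (input) gave 4 groups of 3 libraries: naive IP, injured IP, naive input and injured input. Every group carries both alleles, and no library of a mouse without the tag or without a crush was analysed here. Per the design text each animal gave both kinds of ganglia, and the naive ones may thus be the uncrushed side. It names 4 mice, the files hold 3 replicates a group, and it is not stated whether a library is 1 animal or a pool. What a p-value weighs here is the scatter among libraries, part of which may be technical. Strain, age and sex are not given in the sources used here.

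Counts assigned to genes ranged, by library, over 33508842 to 36338423 (naive IP), 41076255 to 41990355 (injured IP), 29436945 to 33015740 (naive input) and 29477848 to 31417170 (injured input). Sensory neuron markers, 8 of 8 detected, summed to 11490 to 11851 CPM, the count scaled to library size, in naive IP, to 12452 to 13123 after injury in IP, 9388 to 9750 in naive input and 9192 to 11140 in injured input. Markers of other cells were reduced in IP but not at 0: the 6 satellite glia markers summed to 442 to 798 CPM in naive IP and 3258 to 3637 in naive input, and the 6 myelinating Schwann cell markers to 717 to 1017 and 3782 to 5005. The 6 axotomy markers, all higher after injury in both fractions, went from sums of 171 to 253 CPM in naive IP to 1532 to 1611 CPM in injured IP. The input libraries numbered 3 stood apart from the other libraries along principal component 3, which held 4.49% of the variance.

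Potassium channels let potassium leave the cell, which pulls the membrane towards rest, ends each action potential and sets how readily a neuron fires again. A channel is built around a pore lined by a selectivity filter, and most pore proteins join as tetramers whose gating is tuned by modifier and auxiliary subunits. In sensory neurons the voltage-gated Kv1, Kv2, Kv3, Kv4 and Kv7 families shape excitability, two-pore-domain channels carry background current, calcium- and sodium-activated channels follow activity, and the satellite glia around each neuron buffer potassium through an inward rectifier.

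The filter is the feature that ties the family together, and its codons are shown for some of the pores whose RNA is described below. Each line gives 45 coding bases from the GENCODE M21 transcript on GRCm38, with the 15 bases of the 5 filter codons in capitals. The stretch was found as a run of codons for threonine or serine, then a small or branched residue, glycine, then tyrosine, phenylalanine or leucine, and glycine.
Kcna2: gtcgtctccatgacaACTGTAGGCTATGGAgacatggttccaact
Kcns3: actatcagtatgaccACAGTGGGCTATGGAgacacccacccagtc
Kcnh4: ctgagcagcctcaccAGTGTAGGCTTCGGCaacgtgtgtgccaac
Kcnma1: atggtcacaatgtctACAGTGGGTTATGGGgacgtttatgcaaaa
Kcnk16, first pore: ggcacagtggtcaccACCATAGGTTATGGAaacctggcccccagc
Kcnk16, second pore: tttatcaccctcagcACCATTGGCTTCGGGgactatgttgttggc
Among the 94 protein-coding members, 63 held 1 such run, the 14 two-pore-domain (Kcnk) genes held 2 each, and 17 held 0. Those 17 were the 12 auxiliary genes (Kcnab, Kcne and Kcnip), the 4 Kcnmb genes and Kcnrg. All 10 modifier genes (Kcnf, Kcng, Kcns and Kcnv), which are known not to form channels alone, held a complete run.

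In naive IP the members spanned several orders of magnitude in CPM per kilobase of exon, the scale used to compare levels between genes. The highest level was that of Kcnab2, a cytoplasmic beta subunit of Kv1 channels, at 300 ± 7.14 CPM per kb (SD, n = 3). Kcna1, a Kv1 pore of myelinated axons, followed at 215 ± 7.64. Next came calcium-binding Kv4 partners, Kcnip3 at 91, Kcnip2 at 67 and Kcnip4 at 63 CPM per kb, with Kcna2 at 63.9 and Kcnab1 at 57.6. Highest in further pore classes were the sodium-activated Kcnt1 (40.8), Kcnd3 (35.2), Kcnk1 (35.1), Kcnh2 (33.1), Kcnj12 (32.7), Kcnc4 (22.5) and Kcnn1 (17.2), all in CPM per kb. Kcns1, at 35.3, led the modifiers. The textbook nociceptor channel Kcnk18 stood at 7.72 and the M-current pore Kcnq3 at 3.79 CPM per kb.

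**Figure D1:**
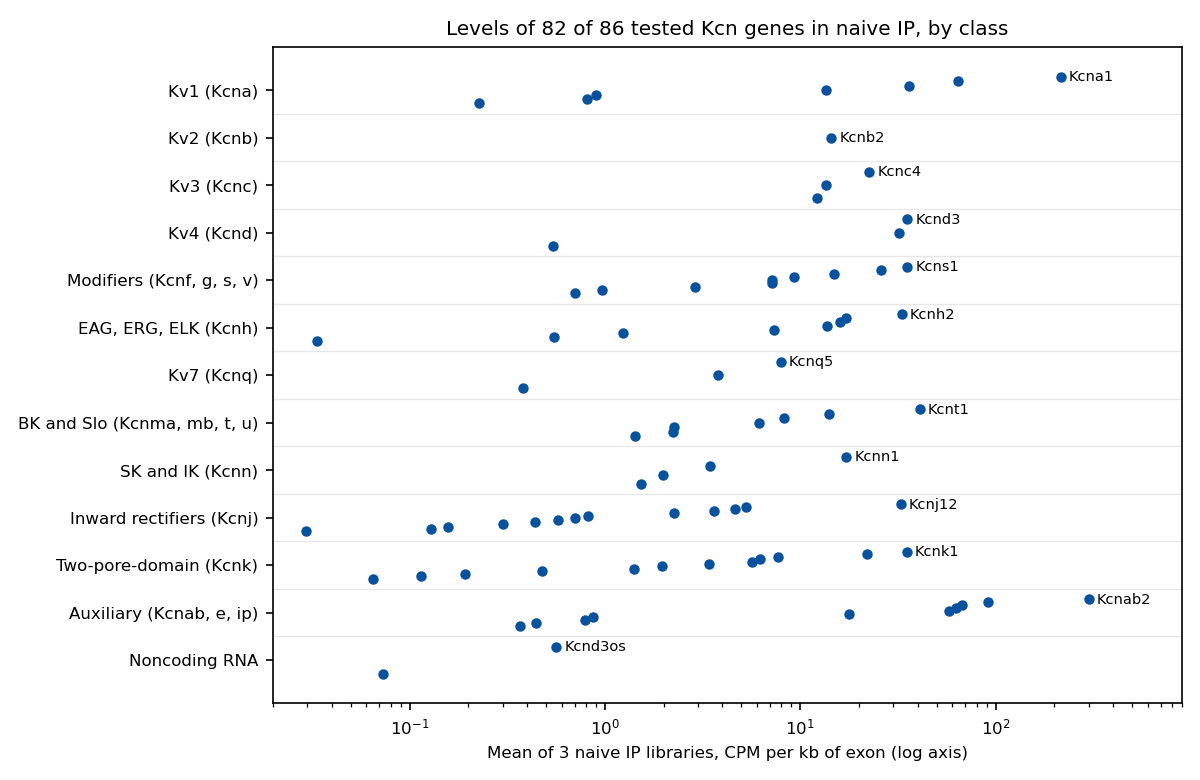
Level of 82 of the 86 tested members in naive IP, as the mean of 3 libraries in CPM per kb of exon on a log axis, with 1 point a gene, 1 line a class and the highest gene drawn in each class named. Kcnab2 at 300 and Kcna1 at 215 CPM per kb lie to the right of all other members.

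After crush most of the members that changed fell. In IP, 38 members were lower in injured than in naive libraries and 5 were higher, while 43 of 86 did not pass the test (edgeR quasi-likelihood test, adjusted p under 0.05 over all genes tested). Over all 15748 genes tested, 18.7% were called, 11.5% higher and 7.12% lower. The median log2 change was -0.338 over the 86 members and 0.021 over all genes. In input 39 members were lower, 6 higher and 41 not called, against 16.0% of all genes called, 7.79% higher and 8.26% lower, with median log2 changes of -0.399 and -0.022. Of the members lower in IP, 34 of 38 were also lower in input, which is 34 of the 39 lower there. The 2 comparisons have no library in common. They came from the same fit, and IP and input may come from the same ganglia, so the overlap is not independent evidence. The matching share over all genes is not given here. Members called higher in both comparisons were Kcnk16, Kcnh4, Kcnmb4 and Kcnq3. Fitting the input libraries alone, in place of all 12, left 28 members called in input, 3 higher and 25 lower. The share of all genes called in that fit is not given here. When replicate number was added as a block inside each fraction, 50 members were lower and 9 higher in IP. Of all genes, 41.8% were then called in IP, 18% lower and 23.8% higher. In input 49 members were lower and 8 higher with the block, against 39.6% of all genes called, 22.1% lower and 17.5% higher. In bulk RNA, fewer cells of a type and less RNA per cell cannot be told apart. Skeletal muscle markers also moved: 4 of 4 were lower in input (median log2 change -1.17), where they summed to 44.3 to 53.7 CPM in naive and 22 to 25.1 CPM in injured libraries, and in IP 0 of 4 were called (median -0.687; 17.5 to 18.9 against 9.63 to 15.3 CPM). Their part in the falls of Kcn genes was not tested.

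**Figure D2:**
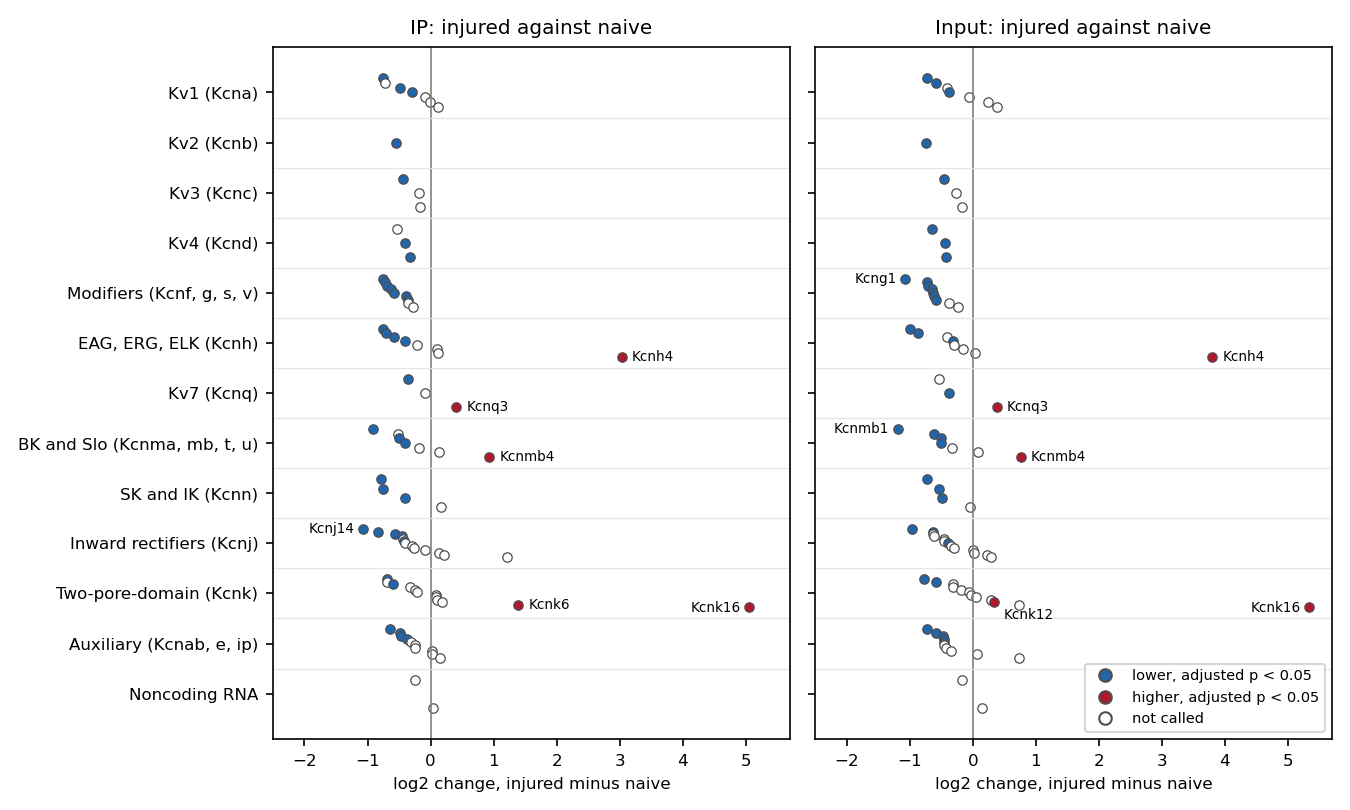
Log2 change after injury (injured minus naive, horizontal axis) of 82 of the 86 tested members in IP (left) and input (right), 1 point a gene and 1 line a class, filled where the adjusted p was under 0.05. Most filled points lie below 0, and Kcnk16 (5.06 in IP, 5.34 in input) and Kcnh4 (3.03, 3.80) stand far above it.

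By class, the modifier subunits were lower in 7 of 9 tested genes in IP and 7 of 9 in input, and the calcium-activated SK and IK pores in 3 of 4 in both. Of all genes tested, 7.12% were lower and 11.5% higher in IP, and 8.26% were lower and 7.79% higher in input. Voltage-gated pores (Kv1 to Kv4, Kv7 and the Kcnh family) had 14 lower and 2 higher of 29 in IP, with a median of -0.321, and the other 57 members had 24 lower and 3 higher, with a median of -0.352. The two-pore-domain class had 2 lower and 2 higher of 12 in each fraction and a median of -0.0629 in IP and -0.0393 in input. Inward rectifiers had 5 lower of 13 in IP and 3 of 13 in input, with 0 higher. With the block within fraction, 6 rectifiers were lower and 2 higher in IP, and 6 lower and 0 higher in input. Of the 12 two-pore-domain genes 4 were then lower and 2 higher in IP, and 3 lower and 4 higher in input. Of all genes, 18% were lower and 23.8% higher in IP with the block, and 22.1% lower and 17.5% higher in input. Of the 3 tested Kcne genes, small membrane-spanning beta subunits, 0 were called in either fraction.

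Among the Kv1 pores, which clamp firing threshold and sit beside nodes of Ranvier, Kcna2 was at 774, 694 and 752 CPM in naive IP and at 447, 435 and 435 CPM in injured IP. In input it was at 666, 704 and 649 CPM in naive and at 404, 436 and 378 CPM in injured libraries. The injured libraries lay below every naive one in both fractions, and the log2 changes were -0.75 (SE 0.070, adjusted p = 7.68e-06) and -0.73 (SE 0.070, adjusted p = 1.67e-05). Kcna4, the A-type Kv1 pore, fell by 0.49 in IP and by 0.58 in input on the log2 scale, from 65.1 ± 3.23 to 46.5 ± 1.88 CPM in IP. Kcna1 was at 901, 841 and 857 CPM in naive IP and at 695, 712 and 707 in injured IP, a log2 change of -0.30 (adjusted p = 0.0426), and changed by -0.38 in input (adjusted p = 0.0157). Kcna6 was at 210.5 ± 1.22 CPM in naive and 197.5 ± 2.86 in injured IP and was not called (log2 change -0.09, adjusted p = 0.306). Its exons share 2355 bases with an antisense gene. The T cell channel Kcna3 was low, at 1.72 and 1.87 CPM, and not called. The beta subunit Kcnab2 fell by 0.37 in IP and by 0.46 in input, from 1225 ± 29.2 to 951 ± 15.1 CPM in IP. Kcnab1 fell by 0.46 in input (adjusted p = 0.0187) and stood at -0.25 in IP, which passed only when replicate number was a block inside each fraction (adjusted p = 0.183 without and 3.05e-05 with it). The Kcna1 call in IP was lost without any 1 of the 6 IP libraries or naive input library 1 (adjusted p 0.0603 to 0.139), and in input without naive library 2 or injured library 1 (0.0633 and 0.0723) or in the fit of the input libraries alone (0.116). The Kcnab1 call in input was lost without naive input library 1 or 2 (0.0682 and 0.0853) or in the fit of the input libraries alone (0.124).

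Kv2 pores carry much of the delayed rectifier current of sensory neurons, and one of them, Kcnb2, fell by 0.55 in IP and by 0.74 in input on the log2 scale. Among the modifiers, which assemble with Kv2 pores and alter their gating, Kcns3 was at 77.3, 81.3 and 78.3 CPM in naive IP and at 54.8, 51.8 and 46.6 in injured IP, with all injured libraries lower. Its log2 change was -0.63 in both fractions (SE 0.074; adjusted p = 6.2e-05 and 0.000101). Kcns1 changed by -0.69 and -0.65, Kcng4 by -0.75 and -0.71, Kcng3 by -0.58 and -0.73, and Kcnf1 by -0.39 and -0.59 in IP and input, all called. Kcng2 fell in IP (-0.36, adjusted p = 0.0208) and was at -0.24 in input (adjusted p = 0.137). Kcnv1 fell in input (-0.62, adjusted p = 0.0207) and was at -0.35 in IP (adjusted p = 0.159). Kcng2 in input and Kcnv1 in IP were called with the replicate block (adjusted p = 0.0325 and 0.000194). Kcng1, at only 2.24 ± 0.0833 CPM in naive IP, fell by 0.73 there and by 1.07 in input. The Kcng1 call in IP was lost without 1 of 9 libraries, namely any IP library, naive input library 1 or 2 or injured input library 2 (adjusted p 0.0515 to 0.12), and in input with the input libraries alone (0.0612). Calls were also lost for Kcnf1 in IP without any of 8 libraries, all but naive IP library 2, injured IP library 1, naive input library 3 and injured input library 3 (0.052 to 0.173), for Kcnf1 in input without naive library 3 (0.059), for Kcng2 in IP without naive library 1 or 3 or injured library 1 or 2 (0.0588 to 0.0976), and for Kcnv1 in input without naive library 1 or 2 or injured library 3 (0.0597 to 0.0843) or with the input libraries alone (0.111).

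The Kv3 pores close fast and allow rapid firing. Kcnc1 fell by 0.43 in IP and by 0.45 in input on the log2 scale, and Kcnc4 stood at -0.16 and -0.17 without a call (adjusted p = 0.397 and 0.405; 0.0103 and 0.0107 with the block within fraction). The Kcnc1 call in IP was lost without naive IP library 1 or 3 or injured IP library 1 (adjusted p 0.0548 to 0.0816), and in input without naive library 3 or injured library 1 (0.0571 and 0.0993) or with the input libraries alone (0.0705).

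Kv4 pores give the fast A-type current and need Kcnip partners for surface expression. Kcnd3 was at 264, 232 and 266 CPM in naive IP and at 217, 183 and 210 CPM in injured IP, so that the highest injured library lay below the lowest naive one. Its log2 change was -0.32 (adjusted p = 0.0133) in IP and -0.42 (adjusted p = 0.003) in input. Kcnd1 changed by -0.40 and -0.44. Kcnd2, at 2.79 ± 0.253 CPM in naive IP, was at -0.54 in IP (adjusted p = 0.0694, and 0.0165 with the block within fraction) and fell by 0.64 in input (adjusted p = 0.0446). Of the 4 Kcnip genes, 3 fell in IP and the same count fell in input. Kcnip1 was at 40.8, 49.2 and 41.4 CPM in naive IP and at 27.2, 31.2 and 25.2 CPM in injured IP. The injured libraries were all lower, with log2 changes of -0.65 (adjusted p = 0.000357) in IP and -0.72 (adjusted p = 0.000253) in input. Kcnip2 changed by -0.49 and -0.58, and Kcnip3, which also acts as a transcriptional repressor, by -0.47 in both. Kcnip4 was not called without the block (-0.25, adjusted p = 0.557 in IP; -0.42, adjusted p = 0.325 in input) and was called with the block within fraction (0.000408 and 8.71e-07); its input libraries numbered 3 were the lowest of their groups, at 82.7 and 57.3 CPM. Single libraries decided 3 of these calls. Kcnd3 in IP was lost without naive IP library 1 or 3 or injured IP library 2 (adjusted p 0.0606 to 0.0693), Kcnd1 in IP without naive library 1 or injured library 3 (0.051 and 0.0532), and Kcnd2 in input without any of 9 libraries, all but injured IP libraries 1 and 3 and naive input library 2 (0.0553 to 0.196), and with DESeq2 (0.0605), library size alone (0.0579), no filter (0.0743) or the input libraries alone (0.123), the last of which also ended the Kcnd1 call in input (0.0681).

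**Figure D3:**
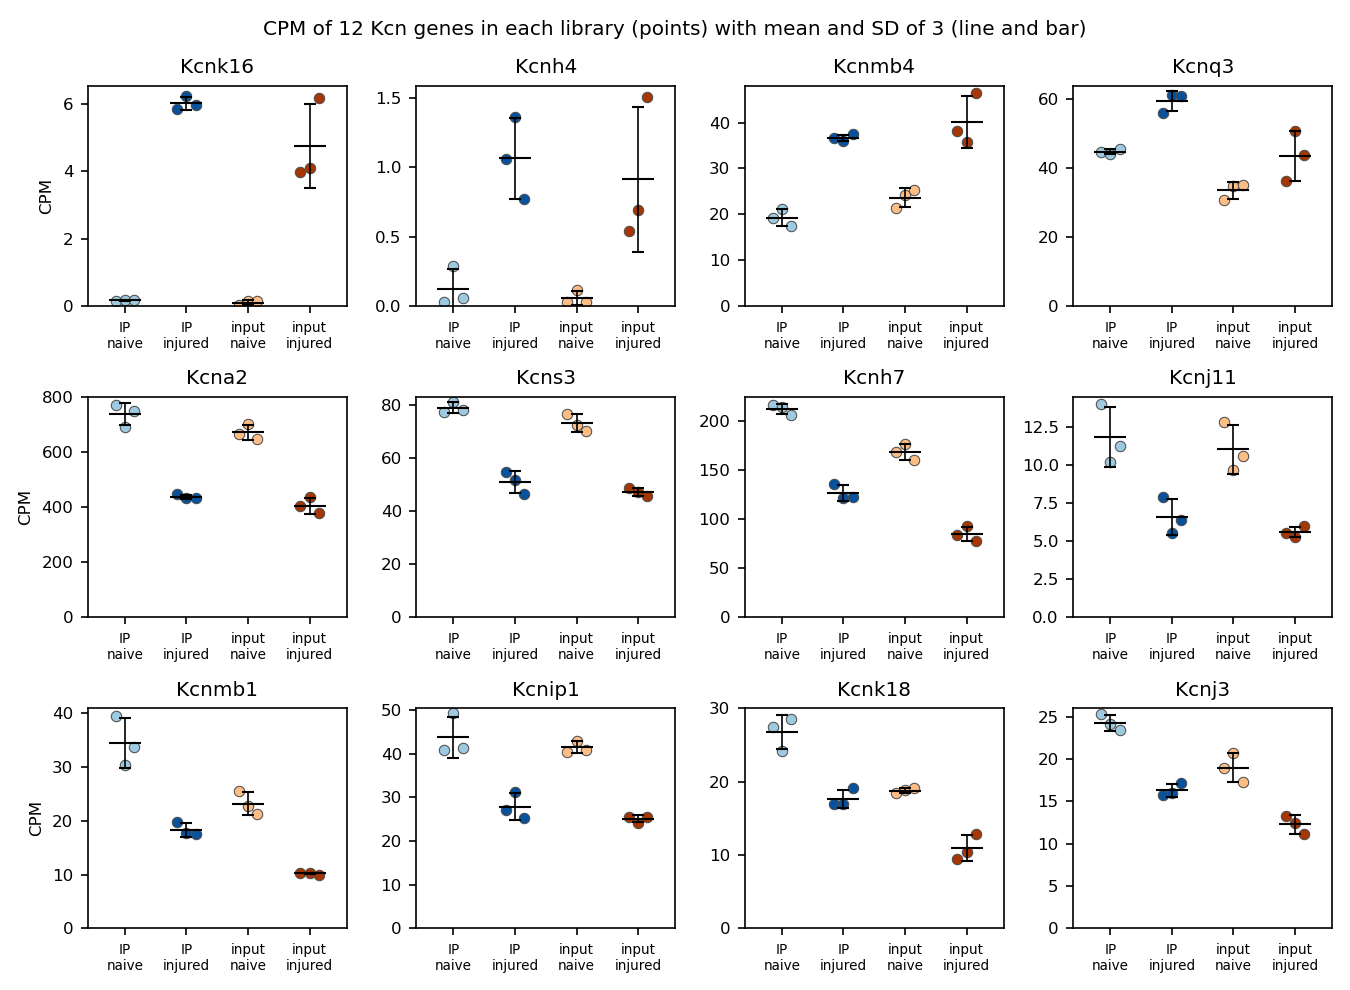
CPM (vertical axis from 0) of 12 members in each of the 12 libraries, as points by group with the mean as a line and the SD of 3 as a bar. Kcnk16, Kcnh4, Kcnmb4 and Kcnq3 lie higher in the injured libraries, and the other 8 lie lower in both fractions.

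Within the Kcnh family of EAG, ERG and ELK channels, 1 gene rose while most called members fell. Kcnh4, an ELK channel, had 1, 10 and 2 counts in naive IP and 41, 54 and 31 in injured IP, and 1, 4 and 1 in naive input against 18, 23 and 46 in injured input. Every injured library was above every naive one. Kcnh4 passed the filter through its injured libraries, so a difference between these groups was built into its selection. The summed rate was 8.35 times higher in IP (exact 95% counting interval 4.71 to 16.1) and 14.5 times higher in input (6.39 to 40.6). Here and below, such intervals leave out the scatter among libraries. The fitted log2 changes were 3.03 (SE 0.61, adjusted p = 0.00366) and 3.80 (SE 0.73, adjusted p = 0.00317). Its level stayed low, at 1.07 ± 0.294 CPM in injured IP. Kcnh7, an ERG channel, was at 216, 214 and 206 CPM in naive IP, at 136, 121 and 122 in injured IP, at 168, 176 and 160 in naive input and at 84.0, 92.5 and 77.8 in injured input. The injured libraries were lower in each fraction, with changes of -0.75 (adjusted p = 2.15e-05) and -0.99 (adjusted p = 3.62e-06), and its exons share 696 bases with Gca on the opposite strand, so reads of both may mix where strand was not used in counting. Kcnh5, an EAG channel, changed by -0.70 and -0.87. Kcnh2, the most abundant member of the family per length and the repolarizing ERG channel of the heart, changed by -0.40 in IP (adjusted p = 0.00873) and -0.31 in input (adjusted p = 0.0416). Kcnh8 fell in IP (-0.58, adjusted p = 0.0144) and was at -0.41 in input (adjusted p = 0.0705; 0.0116 with the block within fraction), while Kcnh1 was at 0.11 and 0.03 and not called. The Kcnh2 call in input was lost without any 1 library other than naive input library 2 or injured input library 3 (adjusted p 0.054 to 0.257) and with the input libraries alone (0.187), and that of Kcnh8 in IP without injured IP library 2 or 3 (0.0589 and 0.0607).

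Called Kv7 genes did not share a direction. Kcnq3 codes for a pore of the M-current, a brake on repetitive firing. Kcnq3 was at 44.8, 44.2 and 45.5 CPM in naive IP and at 56.1, 61.1 and 61.0 in injured IP, and in input at 30.7, 35.0 and 35.1 against 36.3, 50.7 and 43.9 CPM. All injured libraries were above the naive ones of their fraction, and the log2 changes were 0.41 (SE 0.11, adjusted p = 0.0165) and 0.38 (SE 0.11, adjusted p = 0.0303). Kcnq5, which can also carry M-current, moved the other way, by -0.35 in IP (adjusted p = 0.00606) and -0.37 in input (adjusted p = 0.00584). The Kcnq3 call in IP was lost without any naive IP library or injured IP library 2 or 3 (adjusted p 0.0512 to 0.0626), in input without naive library 1 or 2 or injured library 2 (0.056 to 0.133) and with the input libraries alone (0.113). The Kcnq5 call in input was lost with the input libraries alone (0.0748).

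BK channels couple calcium entry to repolarization, and their beta subunits set calcium sensitivity and speed. The pore gene Kcnma1 was at 76.6 ± 3.23 CPM in naive IP and 83.5 ± 2.85 in injured IP and was not called (log2 change 0.13, adjusted p = 0.308; 0.0346 with the block within fraction), nor in input (0.09, adjusted p = 0.54). Its beta subunits moved in opposite directions. Kcnmb4, the neuronal beta subunit, was at 19.3, 21.1 and 17.4 CPM in naive IP and at 36.6, 36.0 and 37.4 in injured IP, and in input at 21.4, 24.3 and 25.3 against 38.2, 35.7 and 46.5 CPM. Each injured library was above all naive ones of its fraction, with log2 changes of 0.93 (SE 0.11, adjusted p = 6.2e-05) and 0.76 (SE 0.11, adjusted p = 0.000424). Kcnmb1, known from smooth muscle, was at 39.5, 30.3 and 33.7 CPM in naive IP and at 19.8, 17.7 and 17.5 in injured IP, and in input at 25.5, 22.8 and 21.3 against 10.3, 10.3 and 10 CPM. Every injured library was lower, with a log2 change of -0.91 in IP (SE 0.11, adjusted p = 5.91e-05). Of the 7 smooth muscle and pericyte markers, 0 were called after injury in either fraction, and they summed to 87.4 to 99.7 CPM in naive and 87.0 to 88.7 CPM in injured IP. In input their sums did not overlap, at 154 to 174 CPM in naive and 136 to 153 CPM in injured libraries, with a median log2 change of -0.133 (-0.0587 in IP). Kcnmb1 stood higher in IP than in input, by log2 differences of 0.57 in naive and 0.85 in injured ganglia, both called. Of the 7 markers, 6 stood lower in IP in naive and in injured ganglia (medians -2.45 and -1.97). The part of these markers in the Kcnmb1 result was not tested. Kcnmb2 was at -0.52 in IP (adjusted p = 0.0557; 0.00319 with the block). The exons of Kcnmb4 share 693 bases with an antisense gene, and those of Kcnma1 share 1016 bases with another.

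The sodium-activated pores both fell. Kcnt1 went from 252 ± 5.78 to 190.7 ± 20 CPM in IP, a log2 change of -0.40 (adjusted p = 0.00958), and by -0.51 in input (adjusted p = 0.00253). Kcnt2 fell by 0.50 and by 0.61, at 8.01 ± 0.769 CPM in naive IP. Kcnu1, known as the sperm channel, fell in input (-0.50, adjusted p = 0.0103) and was at -0.19 in IP (adjusted p = 0.286). Among the small-conductance calcium-activated pores, Kcnn1 fell by 0.41 and by 0.48, Kcnn2 by 0.75 and by 0.73, and Kcnn3 by 0.78 and by 0.53. Kcnn1 had the highest level of them, with 71.2, 66.1 and 72.0 CPM in naive IP and 53.9, 49.3 and 54.1 CPM in injured IP, and these did not overlap. The intermediate-conductance pore Kcnn4, known from blood and immune cells, was not called (0.16 and -0.04). Without injured IP library 2 the Kcnt1 call in IP was lost (adjusted p = 0.0525), as was that of Kcnt2 without naive IP library 1 or 2 or injured IP library 2 (0.0712 to 0.128) and in input without naive library 2 (0.0639) or with the input libraries alone (0.0572). In input, Kcnu1 was lost without naive library 1 (0.0552) or with the input libraries alone (0.0735), and Kcnn3 without any of 6 libraries, namely naive IP library 3 and all input libraries but naive library 2 (0.051 to 0.185), with no filter (0.0599) or with the input libraries alone (0.109).

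Inward rectifiers pass current best near rest. Kcnj3, a pore opened by G protein-coupled receptors, was at 25.3, 24.1 and 23.4 CPM in naive IP and at 15.7, 16 and 17.2 CPM in injured IP, with no overlap. It fell by 0.57 in IP (adjusted p = 0.000895) and by 0.63 in input (adjusted p = 0.000717), and shares 1621 exon bases with an antisense gene. Its partner Kcnj9, at 2.72 ± 0.353 CPM in naive IP, was at -0.43 and -0.46 without a call. Kcnj11, the pore of ATP-sensitive channels, was at 14, 10.2 and 11.2 CPM in naive IP and at 7.87, 5.51 and 6.39 in injured IP, again without overlap, and fell by 0.84 (adjusted p = 0.00234) and by 0.97 (adjusted p = 0.00135). Kcnj12, the most abundant rectifier per length, fell by 0.42 and by 0.39. Kcnj14 had the lowest log2 change of all members in IP, -1.07 (adjusted p = 0.013), at 1.55 ± 0.391 CPM in naive IP, and was at -0.62 in input (adjusted p = 0.144). Its IP call was lost without naive IP library 1 (adjusted p = 0.0686), and that of Kcnj12 in input with the input libraries alone (0.0505). Kcnj10, the rectifier of satellite glia, was not called after injury in IP (0.21, adjusted p = 0.507; 0.0464 with the block within fraction) or in input (0.00, adjusted p = 0.995), where it stood at 50, 61.9 and 53.2 CPM in naive and at 47.0, 64.6 and 53.8 CPM in injured libraries. Also called only with the block were Kcnj2, a strong rectifier (-0.40 in IP, adjusted p = 0.23, and 0.0199 with it; -0.34 in input, 0.306 and 0.0115), Kcnj15 in IP (1.22, 0.114 and 0.0413) and Kcnj6 in input (-0.63, 0.16 and 0.0275). The 6 satellite glia markers summed to 3258 to 3637 CPM in naive and 3402 to 4051 CPM in injured input. In IP they summed to 442 to 798 CPM in naive and 771 to 1107 CPM in injured libraries. After injury 1 of the 6 was called higher in each fraction. Their part in the Kcnj10 result was not tested.

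The largest rise among all members belonged to a two-pore-domain gene, Kcnk16, best known from pancreatic beta cells. It had 5, 6 and 7 counts in naive IP and 227, 246 and 238 in injured IP, and 1, 5 and 5 in naive input against 133, 136 and 188 in injured input. Every injured library was far above every naive one. Kcnk16 passed the filter through its injured libraries, so a difference between these groups was built into its selection. The summed rate was 34 times higher in IP (exact 95% counting interval 21.4 to 57.8) and 41.5 times higher in input (23 to 83.8), and the fitted log2 changes were 5.06 (SE 0.29, adjusted p = 1.62e-07) and 5.34 (SE 0.32, adjusted p = 4.21e-07). Per length it reached 6.56 CPM per kb in injured IP, where the Kcnk genes nearest to it were Kcnk4 at 6.06 and Kcnk13 at 6.59. The exons of Kcnk4 share 587 bases with Catsperz on the same strand, so its level may hold reads of both. Kcnk6 had 8, 10 and 9 counts in naive IP and 16, 28 and 39 in injured IP, with no overlap. It rose in IP (log2 change 1.39, SE 0.38, adjusted p = 0.0212) and was at 0.74 in input (adjusted p = 0.0748; 0.00283 with the block within fraction). Kcnk6 was much lower in IP than in input, and of the 6 macrophage markers in the table, 3 were higher after injury in IP, where they summed to 7.94 to 13.8 CPM in naive and 15.2 to 33.2 CPM in injured libraries, and 4 in input, where they went from 64.3 to 71.7 to 114 to 139 CPM. Their part in the Kcnk6 result was not tested. Its IP call was lost without naive IP library 1 or 3 or injured IP library 2 or 3 (adjusted p 0.0567 to 0.101).

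Other two-pore-domain genes changed less. Kcnk18, a calcium-regulated brake on nociceptors, was at 27.5, 24.2 and 28.6 CPM in naive IP and at 17.0, 16.9 and 19.1 CPM in injured IP, and in input at 18.4, 18.8 and 19.1 against 9.51, 10.4 and 12.9 CPM. The injured libraries were lower throughout, with changes of -0.60 (adjusted p = 0.00205) and -0.78 (adjusted p = 0.00055). Kcnk1, the most abundant of the class per length, fell by 0.69 and by 0.58. The mechano- and heat-gated pores Kcnk2 (-0.32 and -0.31), Kcnk4 (0.09 and -0.05) and Kcnk10 (0.18 and 0.29) were not called in either fraction. Kcnk2 was called with the block within fraction in both (adjusted p = 0.0203 and 0.0195) and Kcnk10 in input (0.00998). Kcnk12, an electrically silent member, rose in input (0.33, adjusted p = 0.0448) and was at 0.11 in IP (adjusted p = 0.53). Its call was lost without any 1 library other than naive IP library 1 or 2, naive input library 3 or injured input library 2 (adjusted p 0.0591 to 0.183) and with the input libraries alone (0.106). Markers of neuron subtypes also moved: of 6 nociceptor markers 3 were lower and 1 higher in IP, with sums of 3895 to 4146 CPM in naive and 3149 to 3425 in injured IP, and of 6 large-diameter neuron markers 3 were lower and 1 higher, with sums of 2527 to 2645 and 2115 to 2176 CPM. Their part in the falls of channel RNA was not tested.

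**Figure D4:**
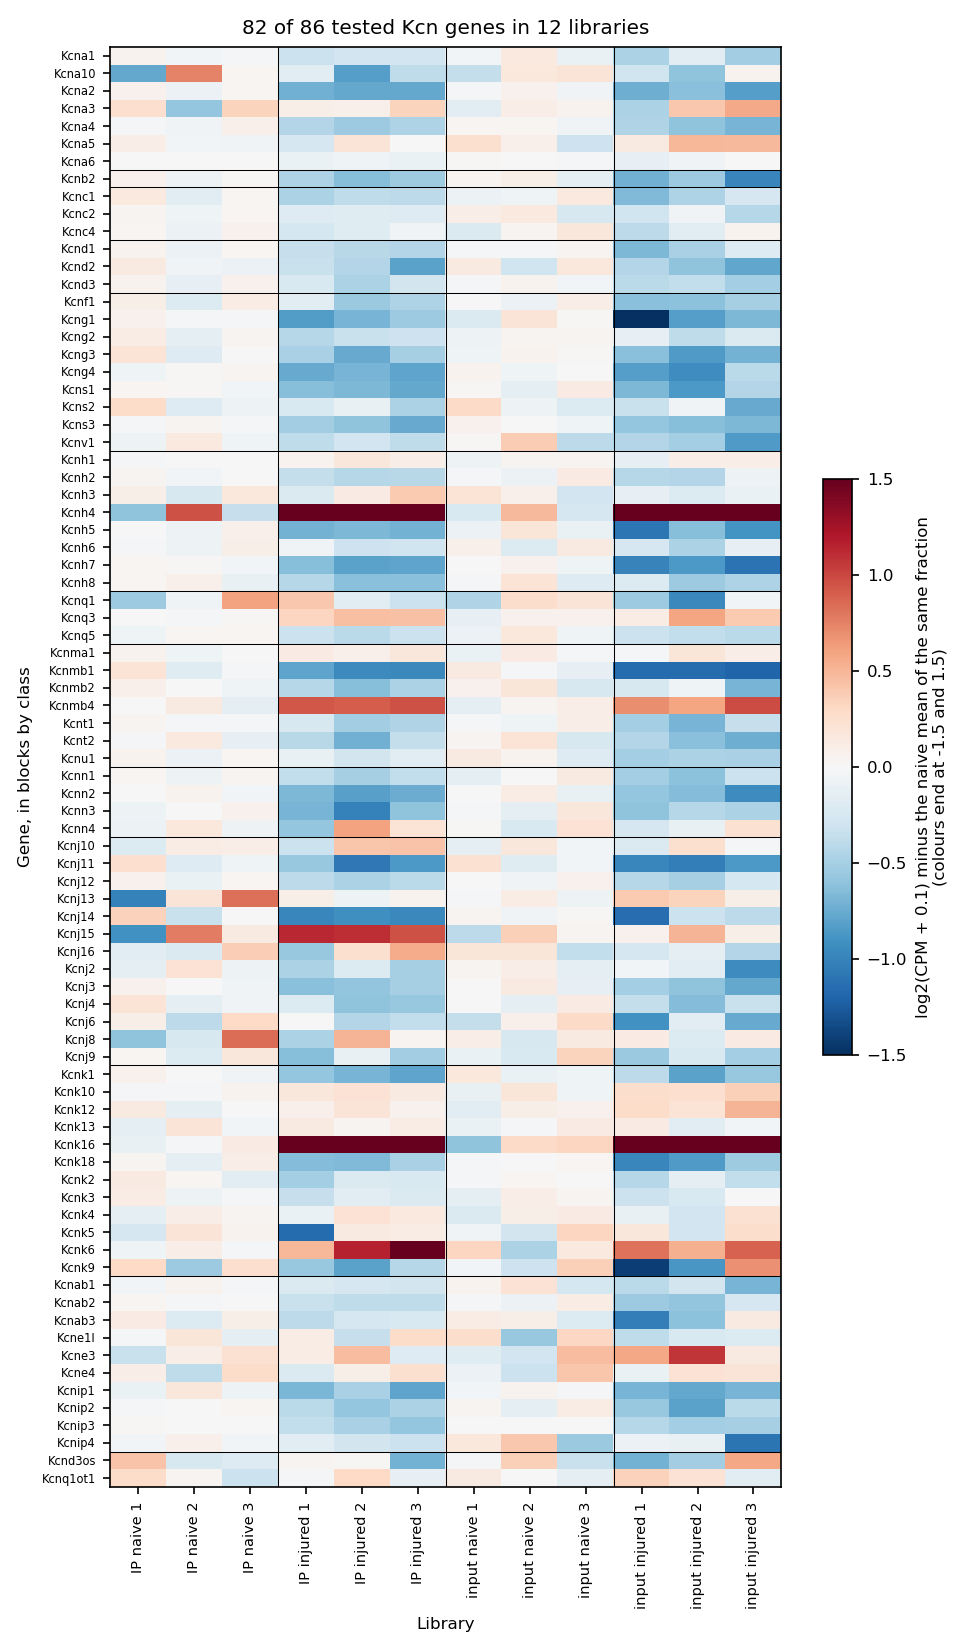
Of the 86 tested members, 82 (rows, in blocks by class) in each of the 12 libraries (columns), as log2(CPM + 0.1) minus the mean of the naive libraries of the same fraction, with colours ending at -1.5 and 1.5. Blue fills most rows of the Kv, modifier, Kcnn and Kcnip blocks in the injured columns, and Kcnk16 and Kcnh4 are the 2 rows that reach the red end in all 6 injured libraries.

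The start regions of the member with the largest rise and of the one with the largest fall in input are shown for contrast with the family. They run from 250 bases before to 50 after the start in the RefSeq table on GRCm38.p6, with CG pairs in capitals, at chr14:20269220-20269519 on the minus strand for Kcnk16 and chr11:33962763-33963062 on the plus strand for Kcnmb1.
Kcnk16: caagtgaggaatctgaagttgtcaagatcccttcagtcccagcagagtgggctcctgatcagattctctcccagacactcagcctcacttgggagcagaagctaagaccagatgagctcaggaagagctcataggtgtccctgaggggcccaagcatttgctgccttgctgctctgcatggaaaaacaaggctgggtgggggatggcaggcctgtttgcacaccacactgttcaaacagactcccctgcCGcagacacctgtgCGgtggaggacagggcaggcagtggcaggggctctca
Kcnmb1: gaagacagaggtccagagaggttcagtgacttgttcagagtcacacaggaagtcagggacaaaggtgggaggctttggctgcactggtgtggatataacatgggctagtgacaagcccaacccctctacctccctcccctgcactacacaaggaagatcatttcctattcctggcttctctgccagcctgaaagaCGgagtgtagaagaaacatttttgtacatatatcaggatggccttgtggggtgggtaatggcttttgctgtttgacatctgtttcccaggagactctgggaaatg
Kcnk16 held 2 CG pairs and Kcnmb1 held 1, where the median was 9 over the 96 start regions of 71 Kcn genes in the table and 7 over all 32851. The AP-1 letters TGACTCA, searched on both strands, were in 2 of the 96 (2.08%) against 5.2% of all, and were in neither region printed here. The CRE letters TGACGTCA were in 0 of the 96 against 1.79%, and the TATA letters TATAAA in 5 (5.21%) against 13.6%. The letters GGACAGC, the right arm of the element bound by the repressor Rest, were in 12 (12.5%) against 6.56%. The left arm of that element, TTCAGCACC, was in only 1 of the 96 (1.04%), that of Kcnh6, against 0.371%. These are counts of letters and no measure of binding.

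The fractions were then compared with each other, IP enriching RNA on tagged neuronal ribosomes. In naive ganglia 30 of 86 members were higher in IP than in input, 14 lower and 42 not called, where 41.1% of all genes were called, 15.1% higher and 26.0% lower. The median log2 difference was 0.175 over the members and -0.014 over all genes. In injured ganglia 34 were higher, 15 lower and 37 not called, against 45.9% of all genes, 21.4% higher and 24.6% lower, with medians of 0.213 and 0.043. Scaling by library size alone moved the median of all genes to -0.106 in naive and -0.105 in injured ganglia and changed the split to 19 higher and 17 lower in naive and to 21 higher and 16 lower in injured ganglia. Among 29 voltage-gated pores, IP exceeded input for 13 in naive and 14 in injured ganglia and was below it for 0 and 1 (Kcnh8, -0.47, adjusted p = 0.018).

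The members lowest in IP against input included several known from glia, vessels or blood cells. Kcnj10 was at 10.5, 13.0 and 12.9 CPM in naive IP and at 50, 61.9 and 53.2 CPM in naive input, far apart, with a log2 difference of -2.18 (SE 0.19, adjusted p = 3.78e-06), and of -1.97 in injured ganglia. Its glial partner Kcnj16 stood at -2.35 and -1.92, Kcnj13, an epithelial rectifier, at -3.05 and -3.61, and Kcnj8, the rectifier of pericytes and vascular smooth muscle, at -2.99 and -3.09. Kcnn4 stood at -2.86 and -2.67, Kcnk5 at -2.82 and -3.09, Kcnk6 at -3.0 and -2.35, Kcnj15 at -2.15 and -1.15, Kcnj2 at -1.35 and -1.41, the beta subunit Kcne4 at -0.99 and -1.04, and the long noncoding RNA Kcnq1ot1, a nuclear transcript antisense to Kcnq1, at -1.89 and -1.99, all called. Kcnj13 and Kcnj8 passed the filter through their input libraries, so a difference between the fractions was built into their selection. As a rate, naive input was 8.38 times naive IP for Kcnj13 (exact 95% counting interval 5.31 to 13.9) and 7.93 times for Kcnj8 (5.53 to 11.7). The exons of Kcnj13 share 623 bases with Gigyf2 on the other strand. Beside these, 6 of 6 satellite glia, 6 of 6 macrophage, 5 of 5 endothelial and 6 of 7 smooth muscle and pericyte markers were lower in naive IP, with medians of -2.63, -2.52, -2.09 and -2.45. Kcnj15 in injured ganglia was lost without any injured IP library or injured input library 2 (adjusted p 0.0612 to 0.109), Kcnh8 there without injured IP library 2 or 3 or injured input library 1 (0.0596 to 0.085), and Kcne4 in naive ganglia without naive input library 3 (0.0539).

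Higher in IP were Kcnk12 (0.71 in naive and 0.48 in injured ganglia), the small-conductance pore Kcnn3 (0.68 and 0.43), the modifiers Kcng2 (0.64 and 0.52), Kcnf1 (0.62 and 0.82) and Kcng3 (0.55 and 0.69), Kcnd3 (0.58 and 0.68), Kcnmb1 (0.57 and 0.85), Kcnk18 (0.51 and 0.69), Kcnd1 (0.48 and 0.52), Kcnma1 (0.47 and 0.51) and Kcna4 (0.46 and 0.55), all called in both. Kcnd3 may serve as an example, at 264, 232 and 266 CPM in naive IP and at 168, 177 and 166 CPM in naive input, without overlap (SE 0.080, adjusted p = 9.08e-05). Kcna1, Kcna2 and Kcna6 did not differ beyond the threshold between IP and input, at 0.09, 0.14 and -0.07 in naive ganglia. The same was so of Kcns1 (0.08) and Kcns3 (0.11). Neuron markers were not all enriched alike: in naive ganglia 6 of 8 sensory neuron and 3 of 6 nociceptor markers were higher in IP, and 0 lower. Of 6 large-diameter neuron markers 0 were higher and 2 lower, with a median log2 difference of -0.00979. The part of neuron subtypes in the results for these genes was not tested. Kcnip4 (0.68 in naive and 0.84 in injured ganglia) was called in both, yet in naive ganglia its call was lost without any 1 library other than naive input library 2 or injured input libraries 1 and 3 (adjusted p 0.0536 to 0.11) with library size alone (0.0893) or with no filter (0.0714). Of the rectifiers, whose called members mostly stood lower in IP, Kcnj3 (0.35 and 0.41), Kcnj12 (0.33 and 0.30) and, in injured ganglia, Kcnj6 (0.89) stood higher. The Kcnn3 call in injured ganglia was lost without injured library 1 or 3 of either fraction (adjusted p 0.0556 to 0.127), with library size alone (0.165), no filter (0.0612) or the injured libraries alone (0.121). The Kcnj6 call was lost without injured IP library 1 or injured input library 1 (0.0684 and 0.0722), and that of Kcnj12 in injured ganglia with library size alone (0.123).

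**Figure D5:**
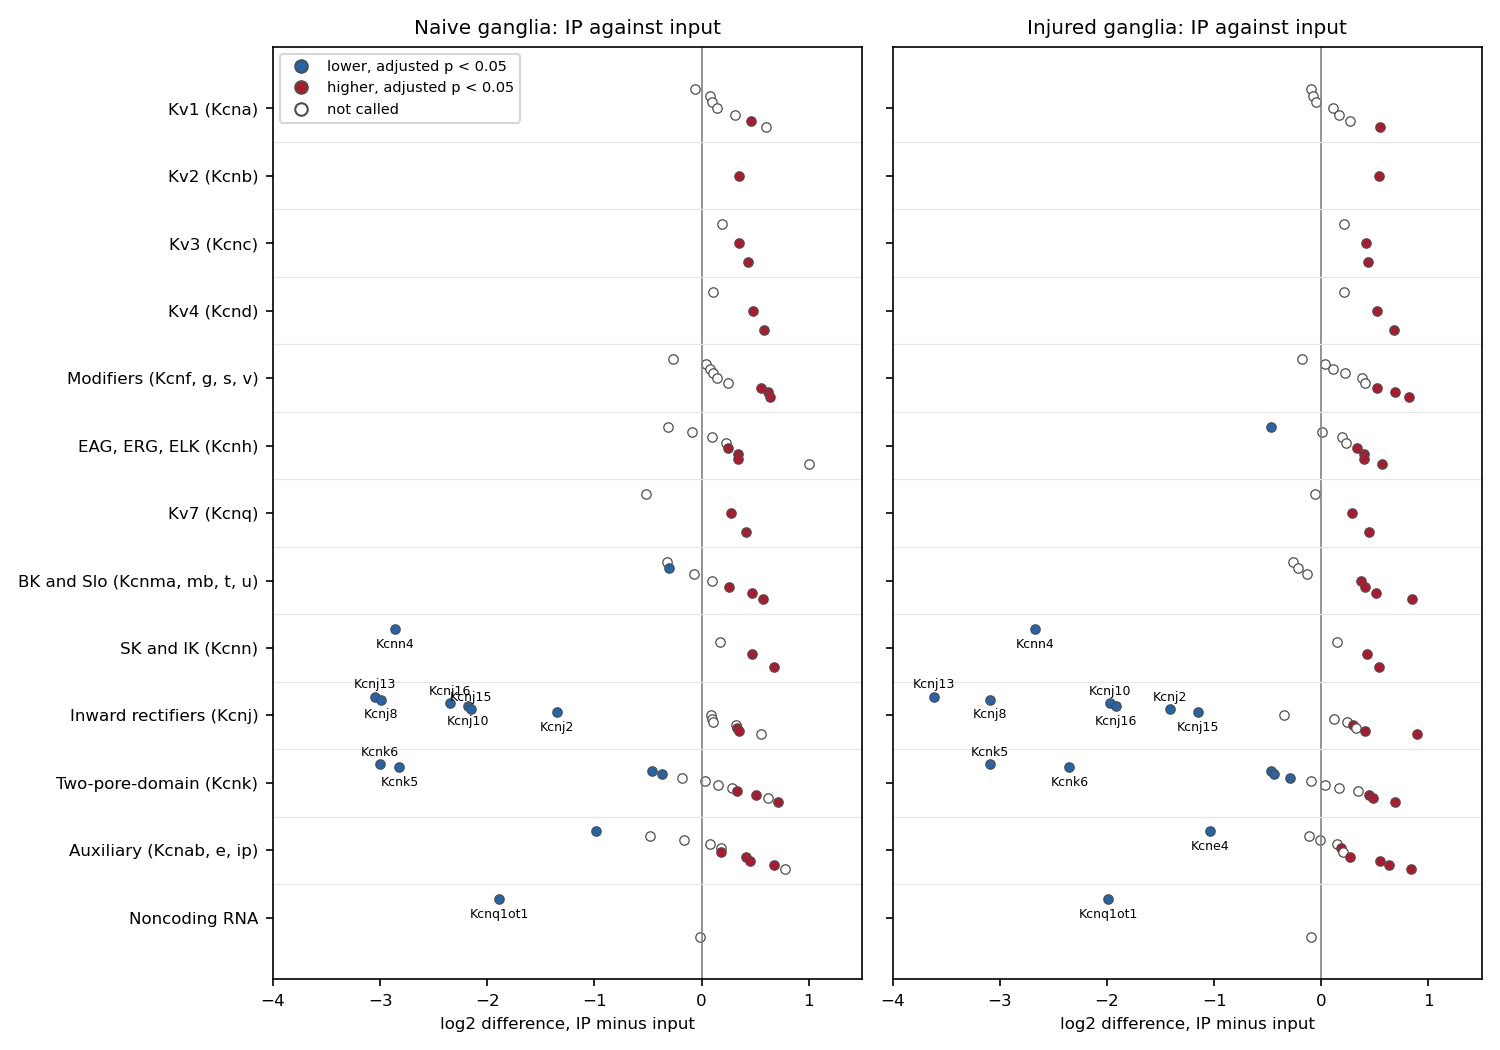
Log2 difference between IP and input (IP minus input, horizontal axis) of 82 of the 86 tested members in naive (left) and injured (right) ganglia, 1 point a gene and 1 line a class, filled where the adjusted p was under 0.05. Kcnn4, Kcnk5, Kcnk6, Kcnq1ot1 and 6 rectifiers including Kcnj10 (-2.18 in naive ganglia) lie more than 1 below 0 in both, and the other 72 members drawn lie between -1.04 and 1.00 in both panels.

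Whether the injury change differed between the fractions was tested as an interaction, the change in IP minus that in input. By edgeR 0 of 86 members were called, against 0.0635% of all genes, with 0 by DESeq2. At an unadjusted p below 0.05 the members again numbered 0, against 3.11% of all genes. The median interaction was 0.0487 over the members and 0.0648 over all genes. When replicate number was a block inside each fraction, 1 member was called: Kcnh7, whose interaction was 0.24, a smaller fall in IP (adjusted p = 0.0455; 1.79% of all genes were called, 1.66% above 0). Without the block, the lowest unadjusted p-values were 0.0507 for Kcnh7 (0.24), 0.0764 for Kcnu1 (0.31) and 0.0935 for Kcnmb1 (0.28), and larger interactions of 1.00 for Kcnj15 and 0.65 for Kcnk6 came from few counts (unadjusted p = 0.137 and 0.182).

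Genes outside the Kcn symbols that build or place these channels were read from a list of 29, of which 27 were tested. In IP 7 were lower and 4 higher after injury, and in input 10 were lower and 1 higher. Of all genes, 7.12% were lower and 11.5% higher in IP, and 8.26% lower and 7.79% higher in input. With the block within fraction, 15 partners were lower and 8 higher in IP, where 18% and 23.8% of all genes were, and 17 lower and 5 higher in input, against 22.1% and 17.5%. Lgi3, a secreted organizer of Kv1 complexes, fell by 0.81 in IP (adjusted p = 8.38e-05) and by 0.85 in input, and Lgi2 by 0.38 and by 0.48. Cntnap2, which holds Kv1 channels beside the node, fell by 0.38 and by 0.50, the scaffold Dlg4 by 0.38 and by 0.39, and the Kv4 partner Dpp6 by 0.29 and by 0.43, while Dpp10 fell in input (-0.78, adjusted p = 0.0476) and was at -0.65 in IP (adjusted p = 0.0845; 2.71e-11 with the block). Abcc8, the sulfonylurea receptor that joins Kcnj11, fell by 0.61 (adjusted p = 0.0157) and by 0.87 (adjusted p = 0.00233), and Nedd4l, a ubiquitin ligase of Kv7 channels, fell by 0.33 and by 0.35. Higher after injury in IP were Lgi4 (0.52, and 0.32 in input, both called), Abcc9 (0.83, adjusted p = 0.01) and Lrrc38 (2.21, adjusted p = 0.0122, from 0.089 to 0.424 CPM). In input Abcc9 was at 0.16 (adjusted p = 0.617). Lgi4 and Abcc9 stood lower in IP than in input, at -1.63 and -2.20 in naive and -1.44 and -1.53 in injured ganglia, all called. Which cells gave their rises was not tested. Ank3, the ankyrin that anchors Kv7 channels at the initial segment, was also higher in IP (0.43, adjusted p = 0.00969). It was at 0.32 in input (adjusted p = 0.051, and 8.96e-07 with the block). Single libraries decided several of these: in IP, Abcc8 and Dpp6 without naive library 1 or injured library 2 or 3 (0.0609 to 0.0768 and 0.0675 to 0.0811), Abcc9 without naive library 1 (0.0525) and Ank3 without injured library 3 (0.0521), and in input Dlg4 without naive library 3 (0.052), Lgi4 without naive library 1 (0.0629) and Dpp10 without any of 9 libraries, all but injured IP library 1, naive input library 3 and injured input library 1 (0.0577 to 0.17), with library size alone (0.0598), no filter (0.115) or the input libraries alone (0.152). Cntn2, the axonal partner of Cntnap2, was not called without the block (0.20 and 0.13; adjusted p = 0.000678 and 0.0406 with it), and neither was Rest, a repressor of neuronal genes (0.49 in IP, adjusted p = 0.0554; 0.33 in input, adjusted p = 0.185; 0.00128 and 0.00881 with the block).

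A second table of the same libraries counts reads over short genomic intervals, and 269 of its 205977 intervals name the 3′ untranslated region (3′ UTR) of 86 Kcn genes, 223 of them without and 46 with the extension mark that the deposited table adds to such a name. Their counts were summed per gene and scaled to the gene table, and the 44 genes with at least 200 counts were read. All 27 of these that the gene test called lower in IP were also lower in the interval sums (median log2 ratio -0.64), as were all 28 called lower in input (-0.665), and the 2 and 4 called higher were higher. Kcna2, over 6 intervals, went from 30.7 ± 1.6 to 18.6 ± 0.52 CPM in IP and Kcnmb1, also over 6, from 4.15 ± 0.58 to 2.06 ± 0.44. Kcnq3 went from 4.24 ± 0.18 to 6 ± 0.66 CPM over 4 intervals and Kcnmb4 from 1.46 ± 0.21 to 2.48 ± 0.20 over 3. Kcna6 stayed near its naive level there too, at 16.9 ± 0.68 and 15.9 ± 0.46 CPM. Among genes not called in IP the readouts did not always share a sign. The log2 ratios of the interval sums were 0.43 for Kcnk3, -0.59 for Kcnn4, -0.16 for Kcnk12, -0.15 for Kcnh1 and 0.11 for Kcnc4. Gene counts gave -0.25, 0.16, 0.11, 0.11 and -0.16 for them in that order. The other uncalled genes read had the same sign in both. The interval with the most counts in the family lay at chr4:152390759-152390784 (mm10, minus strand) listed under the 3′ UTR of Kcnab2 without that mark, with 6872 counts over the 12 libraries. The 2 tables share reads, so this is a second readout and not independent evidence.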

How the data were processed

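RNA of 12 libraries, 3 in each of 4 groups taken from the sample titles, was analysed. RNeasy Mini columns and, after removal of ribosomal RNA, TruSeq Stranded Total RNA Gold kits were used, per the labels' protocols. Tools and builds named in the submitters' processing notes are bcl2fastq 2.17, STAR and HTSeq, with GRCm38 and mm10. The sources used here do not say whether strand was used in counting. The authors deposited raw counts per gene and per short interval. Of 24060 gene entries, 27 with names turned into dates (0.191% to 0.214% of counts) were left out.

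Counts were tested in R 4.3.3 with the quasi-likelihood test of edgeR 4.0.16 (robust fit, TMM scaling, filterByExpr) on all 12 libraries (4 group means, leaving 8 residual degrees of freedom), Benjamini-Hochberg adjusted over all 15748 genes at 0.05, in 5 comparisons. CPM use TMM-scaled library sizes, exon lengths and transcripts are from GENCODE M21, and counting intervals cover counting error only. The fit was tested on simulated data. DESeq2 1.42.0 and other settings were alternatives. Replicates differed by 4.75 to 54.9 in chi-square per degree of freedom, so none were merged. Same-numbered injured and naive libraries deviated together in each fraction (correlations 0.191 to 0.447 in IP and 0.273 to 0.597 in input), so the numbers were read as pairs there from the data; the labels do not say what a number stands for. Named were, per comparison, up to 10 members with the largest rise and fall among those called, members called against their subfamily, the highest per length of each subfamily, and listed textbook genes; other members are named where a class is described and were chosen after their values were seen. Members and lists were chosen with earlier results of these data known. Some members are not reported here; they stay in the counts over members and are not drawn.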

Additional observations from a re-analysis of the deposited data

How the results depend on the processing

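Over the settings tried, 0 called changes of members or partners turned in direction. The number of members called after injury ranged from 31 to 46 in IP and from 35 to 44 in input as single libraries were left out, from 34 to 47 and from 42 to 50 for IP against input in naive and injured ganglia, and was 0 throughout for the interaction. Fitting only the libraries compared left 28 called in injured against naive input, instead of 45, in a fit with fewer samples. A block on replicate number inside each fraction follows the pairing of injured and naive libraries. It gave 59 calls in IP, 57 in input and 1 in the interaction, and ended 0 of the calls of members. Of all genes, 41.8% in IP, 39.6% in input and 1.79% in the interaction were called with that block. In the main fit the shares were 18.7%, 16.0% and 0.0635%. A replicate block over all 12 libraries gave 47 and 49 calls after injury, 46 and 52 for IP against input, and 0 in the interaction. Shares of all genes called are not given here for that block, for the libraries compared alone or for single libraries left out. Those counts thus do not set Kcn genes apart from genes at large. Deviations of same-numbered IP and input libraries correlated at 0.0766 to 0.13 in naive and 0.0472 to 0.23 in injured ganglia. Pairs with unlike numbers were at -0.0982 to 0.00815 and -0.17 to 0.0607. Whether IP and input of a number are a pair is not stated, and the main fit did not pair them. Of 203 calls of members and, after injury, of partner genes, 128 held under every setting and 75 were lost under at least 1. Leaving out both naive libraries numbered 2 ended 36 of them, library size alone 26, the libraries compared alone 26, no filter 8 and DESeq2 2. Genes under about 1 CPM are limited by depth.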
